A study of Mus musculus with 96 samples.

Results

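The miR-17-92 and miR-106b-25 clusters are a pair of microRNA clusters of shared ancestry, and their 9 hairpins were followed here in small RNA libraries of mouse striatum. The choice was made with earlier results of these data known, by a rule that itself used no measured value. The 9 were listed by hairpin identifier out of 1187 hairpins in the count table. Of these, 6 form miR-17-92, namely mir-17 (MI0000687), mir-18a (MI0000567), mir-19a (MI0000688), mir-20a (MI0000568), mir-19b-1 (MI0000718) and mir-92a-1 (MI0000719). The other 3 form miR-106b-25, namely mir-106b (MI0000407), mir-93 (MI0000581) and mir-25 (MI0000689). All 9 passed the filter on low counts, which left 474 hairpins for testing.

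The 96 libraries came from striatum of mice on a C57BL/6 background, with 8 mice of each genotype at each age, 4 of them female and 4 male. The knock-in mice were heterozygous for an engineered Htt allele of defined CAG repeat length and kept 1 wild-type allele. Expansion of this repeat causes Huntington's disease, and the Q20 allele is not expanded. The lines were named by repeat length, Q140, Q92, Q50 and Q20, and wild-type (WT) littermates were taken from the Q20 and the Q50 line only. Mice were 10 or 6 months old, and controls here are Q20 mice with both WT groups, 24 libraries at each age. By the sample labels the Q140 and Q92 mice shared cages with heterozygous mice of their own line, while Q20 and Q50 mice and their littermates were housed with WT and heterozygous mice. The study's methods describe mixed cages and give no such split by line. If the labels hold, housing and genotype cannot be told apart where Q140 or Q92 mice are compared with the other groups. This difference in housing also enters the slopes on CAG length. The Q20, Q50 and WT groups had the same kind of housing by these labels. Whole striatum was used, and a lower share of a cell type cannot be told apart from less RNA per cell of that type. Total counts were between 3948560 and 12530911 per library, with a median of 6638753, and the 9 hairpins held a median of 0.464% of them (0.385% to 0.651%). The median total at 6 months was 6981536 in Q140 and 5911418 in controls, and at 10 months it was 6853671 in Q140 and 6769024 in controls. The part of depth in the results was not tested. A connectivity to the other libraries of the same age far below the rest was found in 8 libraries (Z between -11.5 and -5.02), among them Q140 male replicate 1 at 6 months, and the counts of called members are given without these 8 where they differ. No marker microRNA of blood, glia or neurons was matched to an identifier, so the tissue label was not checked against markers.

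A microRNA is cut from a hairpin in a longer transcript, and one strand is loaded into an Argonaute protein, which it guides to messenger RNAs that pair with its seed near the 5′ end. Hairpins of a cluster are made from 1 transcript, but each is cut, loaded and degraded on its own, so their mature levels need not be equal. The miR-17-92 cluster is known as an oncogenic cluster in lymphoma that promotes proliferation and survival, and in the nervous system it is known for acting in neural progenitors. The miR-106b-25 cluster lies in a gene of the DNA replication machinery and is known to act in adult neural stem cells.

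The 9 mature microRNAs carry only 4 seeds, and the clusters share 2 of these. The sequences are shown because the seed decides which hairpins could pair with the same targets. They are the RefSeq mature sequences of build GRCm38.p6, 5′ to 3′, and capitals mark the seed, bases 2 to 8. For each hairpin the arm usually taken as the dominant product is given; the counts are per hairpin and do not separate the arms.
miR-17-5p: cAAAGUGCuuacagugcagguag
miR-20a-5p: uAAAGUGCuuauagugcagguag
miR-106b-5p: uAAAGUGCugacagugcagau
miR-93-5p: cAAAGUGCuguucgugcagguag
miR-18a-5p: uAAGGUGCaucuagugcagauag
miR-19a-3p: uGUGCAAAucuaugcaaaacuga
miR-19b-3p: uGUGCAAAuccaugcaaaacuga
miR-92a-3p: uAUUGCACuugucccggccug
miR-25-3p: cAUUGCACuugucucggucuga

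Within a seed the sequences are close. miR-19a-3p and miR-19b-3p differ at 1 of 23 bases, miR-17-5p and miR-20a-5p at 2 of 23, and miR-92a-3p and miR-25-3p at 3 of 21 compared from the 5′ end. Across the clusters miR-93-5p differs from miR-17-5p at 4 of 23 bases, and from miR-106b-5p of its own cluster at 5 of 21. The mature miR-19b-3p sequence is also encoded by Mir19b-2 and that of miR-92a-3p by Mir92-2, both on chromosome X. No other locus of the RefSeq table holds the mature sequence of the remaining 7.

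On GRCm38 the 6 hairpins of miR-17-92 lie within 836 bases of chromosome 14 (chr14:115043671-115044506, plus strand), in an exon of the long noncoding RNA Mir17hg (chr14:115042879-115046727). The order along it is mir-17, mir-18a, mir-19a, mir-20a, mir-19b-1 and mir-92a-1. The 3 hairpins of miR-106b-25 lie within 498 bases of chromosome 5 (chr5:138165321-138165818, minus strand), inside Mcm7 (chr5:138164583-138172422), which encodes a subunit of the replicative helicase. There mir-106b is intronic in both of the 2 Mcm7 transcripts that span it. For mir-93 and mir-25, 1 of the 3 spanning transcripts has an exon that overlaps the hairpin and the other 2 have an intron. Hairpin lengths implied by the deposited counts and FPKM equalled the annotated lengths for 9 of 9, from 80 bases for mir-92a-1 to 107 for mir-20a.

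Levels of the hairpins within a cluster were far apart. Per length, as FPKM (reads scaled by hairpin length and by library size, the deposited unit), mir-92a-1, whose mature form shares the seed of miR-25, had a median of 38390 over the 96 libraries (29220 to 55390). It made up 97.3% of the summed median FPKM of miR-17-92 and ranked 49 among all hairpins. In miR-106b-25, mir-93 had a median FPKM of 8160 (4623 to 14280), mir-25 of 7439 (6172 to 9352) and mir-106b of 1525 (1018 to 1847), or 47.7%, 43.4% and 8.91% of that cluster's sum. The remaining miR-17-92 hairpins were lower, with a median FPKM of 485.7 for mir-17, 329.7 for mir-20a, 176.2 for mir-19b-1, 46.0 for mir-18a and 25.8 for mir-19a. The order held library by library for most neighbours. In 96 of 96 libraries mir-92a-1 was above mir-93, mir-25 above mir-106b and mir-106b above mir-17, and the weakest step was mir-93 above mir-25, in 65 of 96. From mir-17 down, each hairpin was above the next in 90 or 91 of 96 libraries.

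The share of the spread that counting alone would give was highest for the hairpins with the lowest counts. The median count per library was 20651 for mir-92a-1, 4526 for mir-93, 4054.5 for mir-25, 810.5 for mir-106b, 272 for mir-17, 221.5 for mir-20a, 95 for mir-19b-1, 29 for mir-18a and 14 for mir-19a. For mir-19a the coefficient of variation within groups was 33.7%, of which counting alone would give 28.0%, and for mir-18a it was 24.1% beside 19.0%. For mir-17 the value was 12.9% beside 6.21%, and for mir-25 it was 6.91% beside 1.58%. The most abundant hairpins were not the least variable, with 13.3% beside 0.71% for mir-92a-1, 13.6% beside 1.49% for mir-93 and 8.97% beside 3.56% for mir-106b. Differences in mir-19a and mir-18a were therefore near the limit of depth, and those in mir-25 were not. Both kinds of value cover 1 library per mouse, and the reads carried no molecular identifiers.

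The hairpin mir-19b-1 was not measured on its own. Its deposited count was not a whole number in 95 libraries, and in 95 of 95 its sum with MI0000546 was whole within 0.001. MI0000546 has no name in the tables used. The share given to mir-19b-1 had a median of 33.6% and lay anywhere between 0.0189% and 87.4%. Its coefficient of variation was 43.9%, that of MI0000546 29.6%, and that of their sum 15.1%. The same held to a smaller degree for mir-92a-1, which was not whole in 96 libraries, was whole with MI0000580 in 91 of 96, and kept 96.9% (95.8% to 98.4%) of the sum. For mir-20a this touched 15 libraries and for mir-18a 3, while mir-17, mir-19a, mir-106b, mir-93 and mir-25 were whole in all 96 libraries. The sum of mir-19b-1 and MI0000546 is given beside mir-19b-1 below, a choice made after these values were seen.

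**Figure D1:**
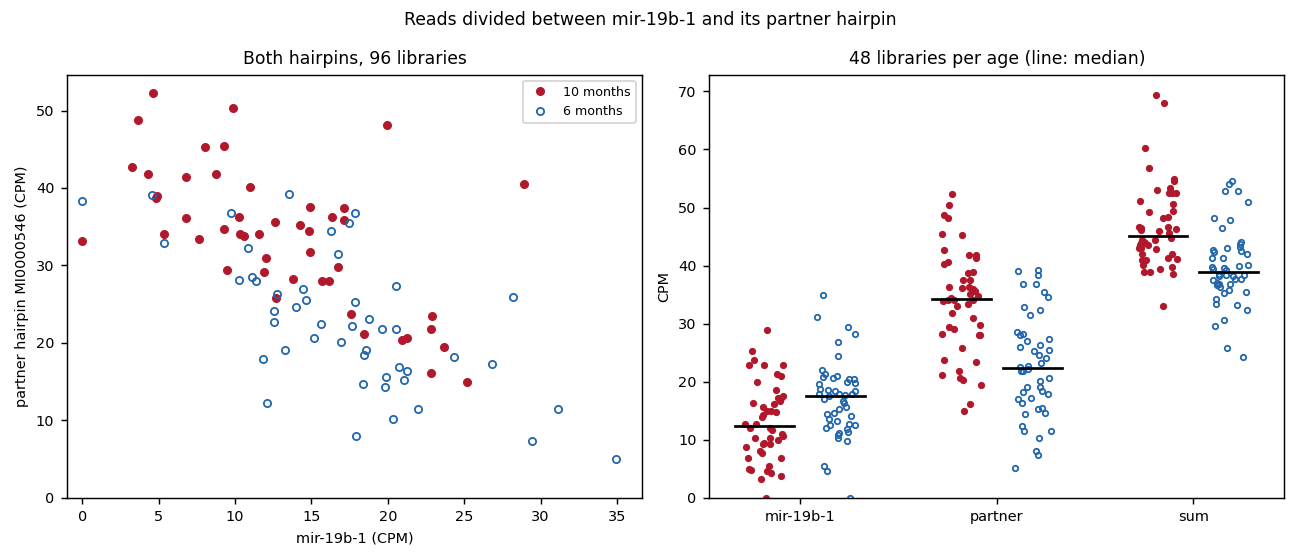
Level in CPM (counts scaled by library size) of mir-19b-1 against its partner hairpin MI0000546 in each of the 96 libraries, and both hairpins with their sum by age. The sum has a coefficient of variation of 15.1%, against 43.9% for mir-19b-1 and 29.6% for MI0000546.

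The first question was whether the hairpins followed CAG length. A slope was fitted at each age with edgeR's quasi-likelihood test, with WT given 7 repeats and sex as covariate, and is given as the log2 change per 100 repeats ± SE, with the ages combined by Stouffer's method and Benjamini-Hochberg adjustment over 474 hairpins. Over both ages mir-17 (0.19 ± 0.04, adjusted p = 1.62e-05), mir-18a (0.32 ± 0.07, adjusted p = 6.37e-05) and mir-20a (0.15 ± 0.05, adjusted p = 0.00507) rose with CAG length. In the other cluster mir-25 fell by 0.12 ± 0.03 (adjusted p = 0.000264). Of the 474 hairpins tested, 11% were called higher and 10.5% lower, and of the 9 members 3 were called higher, all in miR-17-92, and 1 lower, in miR-106b-25.

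The other 5 hairpins missed the threshold over both ages. The slope of mir-92a-1 was 0.09 (95% interval 0.01 to 0.16, adjusted p = 0.0995) and that of mir-19a 0.12 (-0.07 to 0.30, adjusted p = 0.532). For mir-93 it was 0.03 (-0.05 to 0.11) and for mir-106b -0.02 (-0.08 to 0.04). The slope of mir-19b-1 alone was -0.03 with an interval of -0.37 to 0.30, and with MI0000546 added it was 0.17 ± 0.04 (adjusted p = 0.000807). The median slope was 0.13 over the 6 hairpins of miR-17-92 and -0.02 over the 3 of miR-106b-25, beside 0.01 over all hairpins tested.

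**Figure D2:**
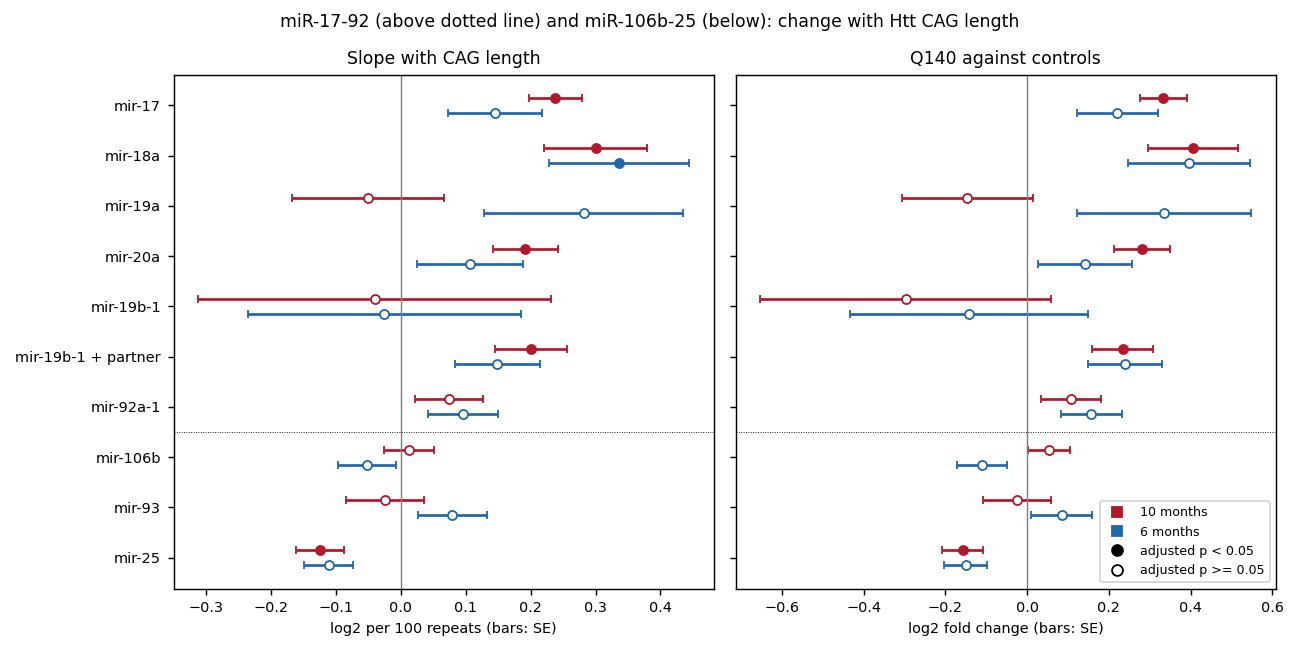
Slope on CAG length per 100 repeats (left) and Q140 over controls (right) on the log2 scale for each hairpin at each age, with bars for 1 SE and filled symbols for an adjusted p under 0.05. The filled symbols at 10 months are mir-17, mir-18a and mir-20a above 0, with mir-19b-1 summed with its partner, and mir-25 below 0.

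At 10 months alone the same 4 hairpins were called, beside 9.07% of all hairpins called higher and 6.75% lower. The slope was 0.24 (adjusted p = 1.34e-05) for mir-17, 0.30 (adjusted p = 0.00441) for mir-18a and 0.19 (adjusted p = 0.0039) for mir-20a, and mir-25 fell by 0.12 (adjusted p = 0.0104). At 6 months 8.02% of all hairpins were called in either direction, and of the members only mir-18a, at 0.34 ± 0.11 (adjusted p = 0.0466). This call was lost under several other settings, among them no filter on low counts (adjusted p = 0.077) and leaving out the 6-month libraries with L number 6 (0.26, adjusted p = 0.362). The values at 6 months for mir-17 (0.15, adjusted p = 0.237) and mir-25 (-0.11, adjusted p = 0.057) had the sign seen at 10 months. The difference of the slopes between ages was tested as an interaction, which called 2.11% of all hairpins and 0 of the 9 members. None of the members had an unadjusted p under 0.05 there, and DESeq2 and limma also called 0. The interaction was 0.07 (-0.09 to 0.23) for mir-17 and -0.04 (-0.14 to 0.06) for mir-25.

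No member was called without the Q140 libraries, though not all of the slopes became smaller. In that fit 0 of 9 hairpins were called by edgeR at 6 months, at 10 months or combined. At an unadjusted p under 0.05 there were 1, 2 and 3 members, and no other tool was run on this choice. The share of all hairpins called is not given for this choice, so the count of 0 cannot be set against it. Without Q140 the fit also covers a shorter range of repeats. The combined slope was then 0.12 (adjusted p = 0.578) for mir-17, 0.31 (adjusted p = 0.491) for mir-18a, 0.09 (adjusted p = 0.819) for mir-20a and -0.13 (adjusted p = 0.491) for mir-25, so those of mir-18a and mir-25 were about as large as with Q140 and those of mir-17 and mir-20a were smaller. The sample descriptions carry an L number, whose meaning the sources used here do not give. Within L numbers 3, 4 and 5 at 10 months (9, 27 and 12 libraries) the slope was 0.23, 0.21 and 0.12 for mir-17, 0.37, 0.25 and 0.23 for mir-18a, 0.35, 0.18 and 0.04 for mir-20a, and -0.06, -0.11 and -0.16 for mir-25. At 10 months L number 3 held no Q140 library, L number 4 held 7 and L number 5 held 1. At 6 months, within L numbers 4, 5 and 6 (10, 27 and 9 libraries), it was 0.19, 0.24 and 0.28 for mir-18a and -0.18, -0.18 and -0.01 for mir-25. Here the Q140 libraries were 1, 3 and 3. L number 3 held 2 libraries at 6 months and gave no value there. Genotypes were thus spread unevenly over the L numbers. The slopes of L number 5 at 10 months and of L number 4 at 6 months hold 1 Q140 library each.

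Q140 mice were then set against controls. At 10 months 9.7% of all hairpins were called higher and 7.17% lower, and among the members 3 were higher and 1 lower. The lowest, median and highest level of mir-17, which belongs to the seed group that targets cell cycle inhibitors, was 48.03, 52.6 and 58.2 CPM (counts scaled by library size with TMM factors) in Q140 (n = 8), against 33.1, 41.8 and 52.9 CPM in controls (n = 24). All 8 Q140 libraries were above the control median and 3 were above every control. By edgeR this was a log2 difference of 0.33 ± 0.06 (adjusted p = 1.1e-05), the smallest adjusted p among the members.

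The level of mir-20a, which shares that seed, was 37.1, 42.6 and 45.5 CPM in Q140, against 27.5, 35.5 and 40.8 CPM in controls. Here 8 of 8 Q140 libraries were above the control median and 6 above every control, so the groups overlapped in 2 Q140 libraries only. The log2 difference was 0.28 ± 0.07 (edgeR adjusted p = 0.00182). With MI0003536 added, the hairpin with which the divided counts of mir-20a became whole, 4 of 8 Q140 libraries were above every control. The log2 difference of this sum was 0.24 (edgeR adjusted p = 0.00938).

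The level of mir-18a, with a seed close to that of miR-17, was 3.79, 5.75 and 7.19 CPM in Q140, against 2.51, 4.24 and 6.48 CPM in controls. The groups overlapped widely, with 7 of 8 Q140 libraries above the control median and 2 above every control. The log2 difference was 0.41 ± 0.11 (edgeR adjusted p = 0.00559), and with only Q20 as controls it was 0.29 (adjusted p = 0.178).

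In the other cluster mir-25, whose mature form shares its seed with miR-92a, was at 509.5, 563.2 and 607.2 CPM in Q140, against 541.9, 633.7 and 745.8 CPM in controls. All 8 Q140 libraries were below the control median, and 1 was below every control. The log2 difference was -0.16 ± 0.05 (edgeR adjusted p = 0.0216). This call was lost with only WT as controls (-0.11, adjusted p = 0.109), with the L number as a factor (adjusted p = 0.0543) and without Q140 female replicate 3 (-0.14, adjusted p = 0.0639).

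The hairpins next to these did not pass the test at 10 months. The log2 difference was 0.11 (95% interval -0.04 to 0.25) for mir-92a-1, 0.05 (-0.05 to 0.16) for mir-106b, -0.02 (-0.19 to 0.14) for mir-93 and -0.15 (-0.46 to 0.17) for mir-19a. The sum of mir-19b-1 and MI0000546 was at 45.6, 51.8 and 60.2 CPM in Q140, against 33.1, 43.7 and 53.4 CPM in controls, a log2 difference of 0.23 (edgeR adjusted p = 0.0241). On its own mir-19b-1 was at 3.27, 10.4 and 16.4 CPM in Q140, against 0, 11.3 and 22.9 CPM in controls, with a log2 difference of -0.30 (-0.995 to 0.40).

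**Figure D3:**
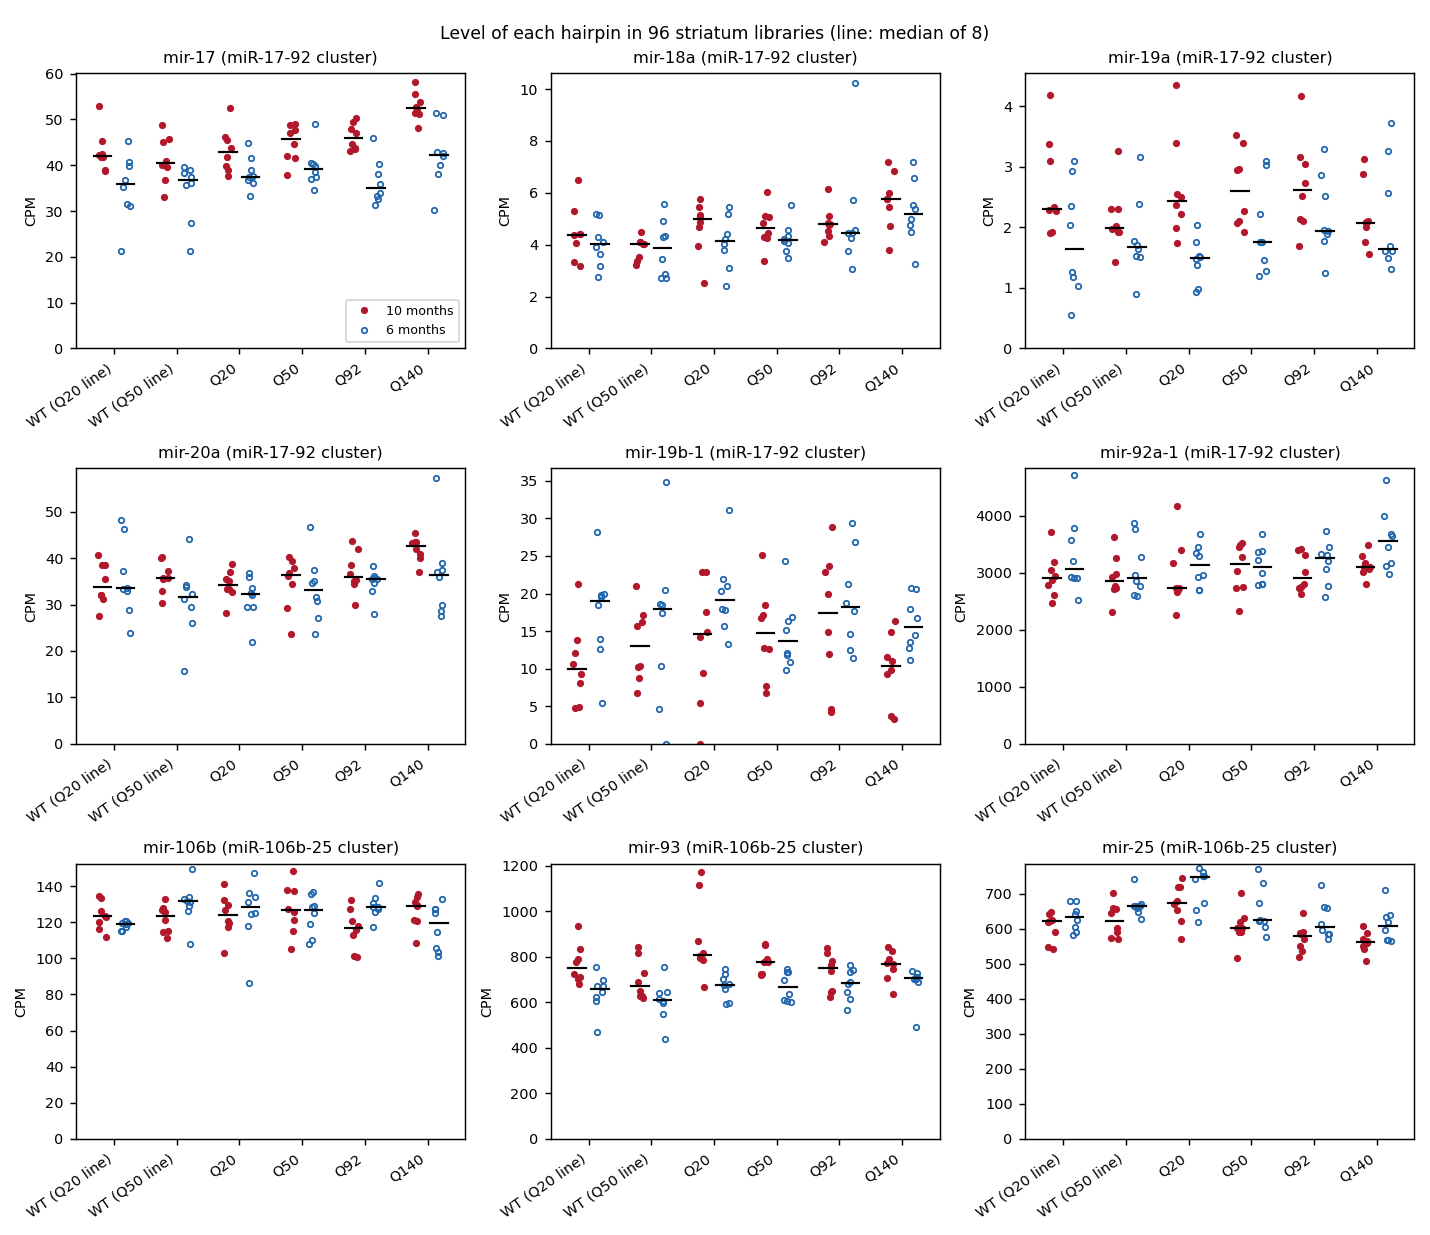
Level of each of the 9 hairpins in CPM by genotype (WT of the Q20 line, WT of the Q50 line, Q20, Q50, Q92 and Q140), 8 libraries at each age, 10 months filled and 6 months open, with a line at each median. At 10 months mir-17 in Q140 lies between 48.03 and 58.2 CPM and mir-25 between 509.5 and 607.2 CPM.

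Sums over a cluster or a seed are mostly those of the abundant hairpins, mir-92a-1 in miR-17-92 and mir-93 with mir-25 in miR-106b-25. At 10 months the 6 hairpins of miR-17-92 summed to 3243 ± 204.3 CPM in Q140 and 3045 ± 452.9 CPM in controls (SD, n = 8 and 24), and the 3 of miR-106b-25 to 1448 ± 72.3 CPM in Q140 and 1540 ± 171.0 CPM in controls. Summed over the seed AAAGUGC, that is mir-17, mir-20a, mir-106b and mir-93, the level was 981.2 ± 72.3 CPM in Q140 and 982.8 ± 141.5 CPM in controls. Over the seed AUUGCAC, that is mir-92a-1 and mir-25, it was 3693 ± 222.1 CPM in Q140 and 3582 ± 467.6 CPM in controls. In each of these pairs the difference was smaller than the SD among controls. That SD is the spread of single mice and does not measure the uncertainty of a difference of means. Above the control median were 7 of 8 Q140 libraries for the miR-17-92 sum and 3 of 8 for the miR-106b-25 sum. For the seeds AAAGUGC and AUUGCAC they were 4 of 8 and 7 of 8. The log2 ratio of the miR-17-92 sum to the miR-106b-25 sum was 1.16 ± 0.11 in Q140 and 0.98 ± 0.18 in controls at 10 months, and 1.37 ± 0.26 in Q140 and 1.17 ± 0.23 in controls at 6 months. These are descriptions with no test.

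At 6 months edgeR called 7.81% of all hairpins between Q140 and controls and 0 of the 9 members. Of the members 4 had an unadjusted p under 0.05, and the DESeq2 and limma tests each called 1, mir-25. The lowest, median and highest level of mir-17 was 30.1, 42.3 and 51.5 CPM in Q140, against 21.2, 37.1 and 45.3 CPM in controls (log2 difference 0.22, adjusted p = 0.163). For mir-18a it was 3.27, 5.18 and 7.21 CPM in Q140, against 2.41, 4.07 and 5.57 CPM in controls (0.40, adjusted p = 0.0916), and for mir-25 it was 566.5, 607.8 and 710.5 CPM in Q140, against 582.9, 664.3 and 773.2 CPM in controls (-0.15, adjusted p = 0.0689). Of the Q140 libraries 7 of 8 were below the control median of mir-25 and 3 below every control. The log2 difference was 0.16 for mir-92a-1 (edgeR adjusted p = 0.204), 0.34 for mir-19a, 0.14 for mir-20a and 0.08 for mir-93. It was -0.11 for mir-106b and -0.14 for mir-19b-1. Without the 8 libraries of low connectivity 2 members were called, mir-17 (0.24, adjusted p = 0.025) and mir-18a (0.45, adjusted p = 0.0359). With the outlier handling of the study's methods and DESeq2 4 were called, mir-17, mir-18a, mir-106b and mir-25. The share of all hairpins called is not given for these 2 settings, so their counts cannot be set against it.

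In the shorter lines no member was called by edgeR. In Q92 at 10 months 1.69% of all hairpins were called and 0 members, with 2 members at an unadjusted p under 0.05, mir-17 (0.12, edgeR adjusted p = 0.388) and mir-25 (-0.14, edgeR adjusted p = 0.146). In Q50 at 10 months 0.211% of all hairpins were called, and 0 members had an unadjusted p under 0.05. At 6 months 0% of all hairpins were called in Q92 and 0% in Q50, with 2 members under an unadjusted 0.05 in Q92, mir-18a and mir-25, and 0 in Q50. DESeq2 and limma called 0 members in each of these 4 comparisons. Medians at 10 months for mir-17 were 42.0, 40.4, 42.8, 45.8, 45.9 and 52.6 CPM in WT of the Q20 line, WT of the Q50 line, Q20, Q50, Q92 and Q140, so the step to Q140 was larger than any other. For mir-20a the medians in that order were 33.8, 35.7, 34.2, 36.5, 35.9 and 42.6 CPM, and for mir-25 they were 621.6, 623.4, 675.2, 603.4, 579.1 and 563.2 CPM. The Q140, Q92 and Q50 comparisons share their controls and are not independent.

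The controls differed among themselves in mir-25. Q20 mice against WT littermates of the Q20 line, both ages combined, gave 1.48% of all hairpins called, and mir-25 was the 1 member among them (log2 difference 0.18 ± 0.04, edgeR adjusted p = 0.0124). At 10 months mir-25 was at 571.1, 675.2 and 745.8 CPM in Q20 (lowest, median and highest), against 541.9, 621.6 and 648.4 CPM in the WT littermates. At 6 months it was at 618.4, 747.3 and 773.2 CPM in Q20, against 582.9, 633.9 and 679.2 CPM in the WT littermates. At each age 7 of 8 Q20 libraries were above the WT median, and 6 at 10 months and 5 at 6 months were above every WT littermate. At both ages the highest median of mir-25 among the 6 genotypes was thus in Q20 and not in WT. Without the filter on low counts the adjusted p was 0.102.

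Age was compared in controls, 10 against 6 months, with genotype and sex in the fit. Here 19.4% of all hairpins were called higher and 24.3% lower, and of the members 3 were higher and 1 lower. The lowest, median and highest level of mir-93, which carries the miR-17 seed, was 617.5, 782.7 and 1172 CPM at 10 months, against 438.1, 645.9 and 754.9 CPM at 6 months (n = 24 each). The log2 difference was 0.26 ± 0.06 (edgeR adjusted p = 0.000234). For mir-17 it was 33.1, 41.8 and 52.9 CPM at 10 months, against 21.2, 37.1 and 45.3 CPM at 6 months, and the log2 difference was 0.21 ± 0.06 (adjusted p = 0.00443). The ranges of both hairpins overlapped between the ages.

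For mir-19a the level was 1.43, 2.30 and 4.36 CPM at 10 months, against 0.547, 1.52 and 3.17 CPM at 6 months, a log2 difference of 0.52 ± 0.14 (edgeR adjusted p = 0.00266). This was the member with the lowest counts, and with only WT mice the value was 0.36 (adjusted p = 0.121). In the other direction mir-25 was at 541.9, 633.7 and 745.8 CPM at 10 months, against 582.9, 664.3 and 773.2 CPM at 6 months (log2 difference -0.11 ± 0.03, adjusted p = 0.0051). The size and the call of mir-25, but not its sign, depended on scaling: with total counts only it was -0.01 (adjusted p = 0.811), and with limma on log2(FPKM + 1) it was -0.01 (adjusted p = 0.781). These 2 scalings moved the median of all hairpins by 0.0962 and 0.118, and the split of calls over all hairpins was 146 higher and 63 lower with total counts, beside 92 higher and 115 lower with TMM factors. Without WT female replicate 3 of the Q20 line at 10 months the adjusted p of mir-25 was 0.051. The sum of mir-19b-1 and MI0000546 differed by 0.18 (adjusted p = 0.00883), while mir-19b-1 alone had -0.53 (adjusted p = 0.104). The log2 difference was -0.14 for mir-92a-1 (edgeR adjusted p = 0.0602), -0.05 for mir-106b, 0.09 for mir-18a and 0.07 for mir-20a, none of them called in this fit. Of 11 alternative settings mir-20a stayed uncalled in 9 and mir-92a-1 in 10, and each passed the threshold in the rest. The limma test also called 4 members, though mir-25 was not among them.

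Sample descriptions begin with a number, and the ranges of these numbers at the 2 ages did not overlap, so age and whatever this number stands for, which the sources used here do not give, cannot be told apart. With the L number as a factor 2 members were called, mir-19a and mir-93, and mir-17 was at 0.17 (adjusted p = 0.0826). Within L numbers 3, 4 and 5 (7, 17 and 21 control libraries, of which 6, 13 and 5 were of 10 months) the age difference was 0.26, 0.17 and 0.49 for mir-93, 0.07, 0.07 and 0.26 for mir-17, 0.47, 0.04 and 1.01 for mir-19a, and 0.01, -0.10 and -0.10 for mir-25. The values of L number 3 rest on 1 library of 6 months. These fits within an L number had sex but not genotype as covariate. In L number 4 Q20 mice were 1 of 4 control libraries at 6 months and 6 of 13 at 10 months. In L number 5 they were 6 of 16 and 1 of 5. L number 6 held no library of 10 months.

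**Figure D4:**
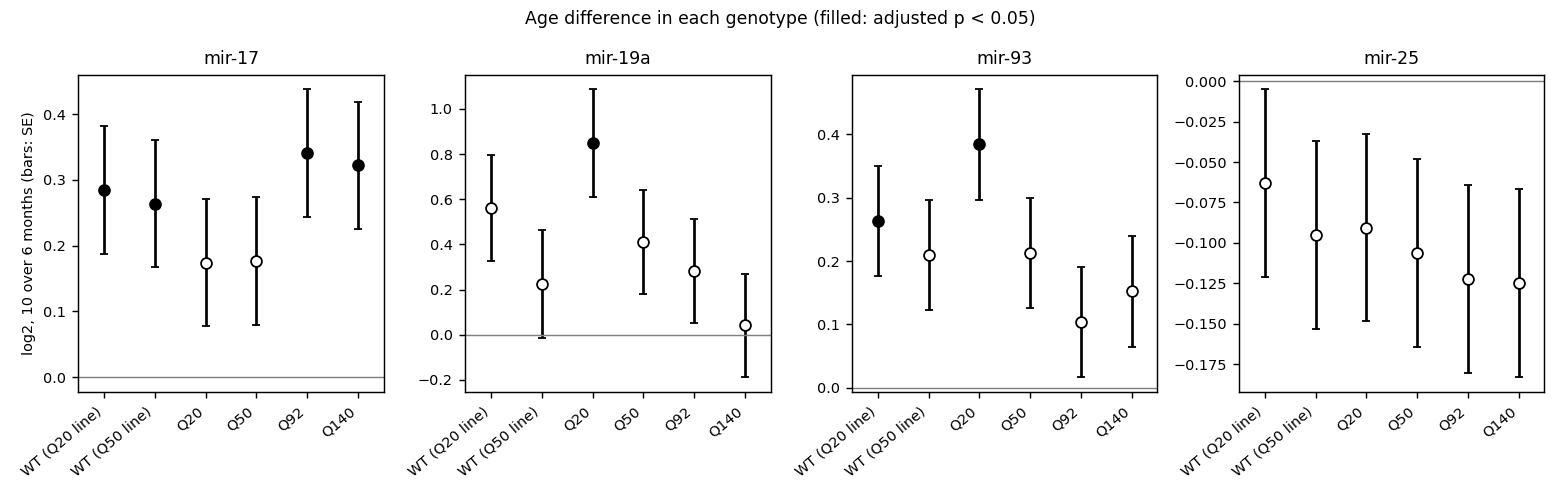
Log2 difference of 10 over 6 months in each of the 6 genotypes for mir-17, mir-19a, mir-93 and mir-25, with bars for 1 SE. All values are above 0 for mir-17, mir-19a and mir-93, and below 0 for mir-25.

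By genotype the age difference had one sign for each of these 4 hairpins in 6 of 6 genotypes, positive for mir-17, mir-19a and mir-93 and negative for mir-25. The 4 were picked by their calls in controls, that is Q20 and both WT groups. Their signs in these genotypes are therefore no separate support. For mir-19a in Q140 the value was 0.04 ± 0.23, smaller than its SE. In Q140, where 15% of all hairpins were called, mir-17 was the 1 member called (0.32, edgeR adjusted p = 0.0111), and without male replicate 1 at 6 months, one of the libraries of low connectivity, its adjusted p was 0.0691. In Q92, with 17.1% called, mir-17 was again the 1 member (0.34, adjusted p = 0.00869). In Q50, with 14.3% called, 0 members passed, 1 had an unadjusted p under 0.05 (mir-93), DESeq2 called 0 and limma 1. In Q20, with 18.8% called, mir-19a (0.85, adjusted p = 0.00606) and mir-93 (0.38, adjusted p = 0.00059) were called. In WT of the Q20 line, with 25.3% called, mir-17 (0.28, adjusted p = 0.023) and mir-93 (0.26, adjusted p = 0.0186) were called, and in WT of the Q50 line, with 21.3% called, mir-17 (0.26, adjusted p = 0.0407). Differences of the age change between genotypes were tested only through the interaction with CAG length, given above.

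Females were compared with males in the 48 control libraries. Of all hairpins 0.211% were called and of the members 0, with 1 unadjusted p under 0.05. This was mir-92a-1, with a log2 difference of -0.17 (95% interval -0.29 to -0.05, unadjusted p = 0.0068, edgeR adjusted p = 0.265). DESeq2 and limma called 0 members.

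Whether hairpins of one transcript varied together between mice of the same group was examined from residual log2(CPM + 0.5) after removal of group means, over 96 libraries and 36 pairs, by a two-sided permutation test with 100000 shuffles within age and adjustment over the 36 pairs. Of the 36 pairs 6 were called, all with a positive correlation, and with total counts only 11 were called. The share of called pairs among other hairpins is not given, and all values share library depth and scaling. These counts can therefore not be read as particular to the clusters. Of the 15 pairs within miR-17-92 3 were called (median r = 0.0841), of the 3 within miR-106b-25 0 (median r = 0.11), and of the 18 between the clusters 3 (median r = 0.0231). At 10 months alone the median r was 0.308 within miR-17-92 and -0.0583 between the clusters, and at 6 months 0.0667 within and 0.0727 between. With partner hairpins summed, 6 of the 15 pairs within miR-17-92 and 4 of the 18 between the clusters were called. The partners are other hairpins, so these sums need not come from the transcript of the cluster alone.

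With both ages pooled and each hairpin taken alone, the highest correlation was between mir-17 and mir-93, of different clusters, with r = 0.535 and rho = 0.396 (permutation p = 1e-05, the smallest these shuffles can give, adjusted p = 0.00012). It was 0.358 at 10 months, where mir-19a with mir-92a-1 was higher at 0.613, and 0.664 at 6 months. Without the 2 libraries farthest from the median of mir-17 r was 0.437. The lowest levels of both hairpins were in male libraries of 6 months that had low connectivity. For mir-17 and mir-93 these were 21.2 and 438.1 CPM in WT of the Q50 line, replicate 3. In WT of the Q20 line, replicate 4, they were 21.4 and 467.4 CPM. The correlation of mir-17 with mir-93 without the libraries of low connectivity is not given here. Within L numbers 4, 5 and 6 r was 0.593, 0.58 and 0.588, and within L number 3, with 11 libraries, it was -0.132. Within miR-17-92 the pairs were mir-20a with mir-92a-1 (r = 0.466), mir-19a with mir-92a-1 (r = 0.465) and mir-19a with mir-20a (r = 0.29, adjusted permutation p = 0.0434), and without the 2 farthest libraries their r was 0.486, 0.468 and 0.252. The other pairs between clusters were mir-92a-1 with mir-25 (r = 0.339, adjusted permutation p = 0.00783) and with mir-93 (r = 0.322, adjusted permutation p = 0.00929). The last of these was 0.568 at 10 months and 0.0921 at 6 months. With mir-19b-1 and mir-92a-1 each summed with its partner hairpin, their correlation was 0.654, beside 0.106 for the hairpins alone.

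**Figure D5:**
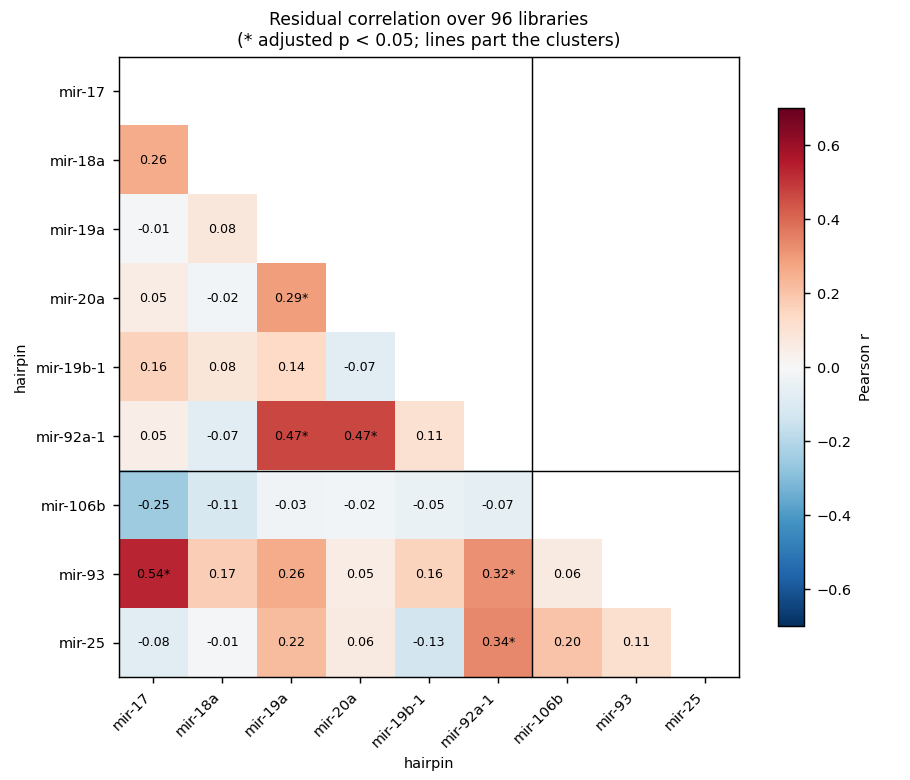
Pearson r between the residual log2(CPM + 0.5) of each pair of the 9 hairpins over 96 libraries, with an asterisk for an adjusted permutation p under 0.05. The asterisks mark 6 of 36 pairs, the highest of these pooled values being mir-17 with mir-93 at 0.535.

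The hairpins outside the clusters whose residual level was most like a cluster's sum were sought among 307 with a mean of at least 10 CPM, over the 96 libraries. For miR-17-92 they were MI0000823 (r = 0.814), MI0000165 (r = 0.721) and MI0026046 (r = 0.689). For miR-106b-25 they were MI0000640 (r = 0.684), MI0000569 (r = 0.673) and MI0000584 (r = 0.657). The tables give no names for these. The first sum is in effect mir-92a-1, and mir-17 had an r of 0.0638 with it, while mir-93 had 0.873, mir-25 0.563 and mir-106b 0.237 with the sum of their own cluster. All points share library depth and scaling, and these are descriptions with no test.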

How the data were processed

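Striatal total RNA (Qiagen miRNeasy) was sequenced by the authors as 36-base strand-specific reads on a HiSeq2000, clipped, aligned to mm10 with STAR and counted with HTSeq. CASAVA 1.8.2 is named in the submitters' processing notes. The deposited tables hold estimated counts per hairpin, some of them not whole, and FPKM per hairpin, which the authors derived from the counts and hairpin lengths. How the values that are not whole arose is not given in the sources used here.

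Estimated counts were rounded. Hairpins were kept with edgeR's filterByExpr (minimum count 10), scaled by TMM and tested with edgeR 4.0.16 in R 4.3.3, sex as covariate, adjusted p under 0.05. SE is the log2 value over the root of F. CPM uses TMM-scaled totals. limma 3.58.1 and DESeq2 1.42.0 served as alternatives, as did RLE factors, total counts only, other filters, a replicate block, the L number as a factor, other controls, fits without Q140 and each library left out in turn. The fits were tested on simulated data. The batch covariate of the study's methods is not in the labels and was not used. The closest pair of libraries had a chi-square of 17.5 per degree of freedom, so none was counted as a duplicate. All 9 hairpins were tested in every comparison, and in some of these only part of the 9 values are given. The members and lists were chosen with earlier results of these data known. The related miR-106a-363 cluster, mir-92b and the cell type markers were not analysed here, since the tables used pair no names with their identifiers.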

Additional observations from a re-analysis of the deposited data

Results flagged for a closer look

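The 8 libraries of each genotype and age were examined for each hairpin, 108 groups in all, and in 6 of them 1 library stood apart from the rest by more than Dixon's 95% critical value. Chance gives about 1 in 20 groups, or 5.4 here. At 6 months, 1 library of Q140, male replicate 1, stood apart for 2 hairpins. It had the highest mir-20a, at 57.3 CPM with the next library at 38.9, and the lowest mir-93, at 492.7 CPM with the next at 688.5. It is one of the 8 libraries of low connectivity. The Q50 group at 6 months had 1 library with mir-17 at 49.0 CPM and the next at 40.6, and the WT group of the Q20 line at 10 months had 1 with mir-17 at 52.9 CPM and the next at 45.2. In Q92 at 6 months 1 library had mir-18a at 10.2 CPM and the next 5.74. The WT group of the Q50 line at 6 months had 1 library with mir-25 at 741.5 CPM and the next at 670.6.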

How the results depend on the processing

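Of the members' values under the alternatives, 653 kept direction and side of the threshold, 17 newly passed it, 25 no longer passed it and 25 changed sign; of the counts of called members, 162 stayed within 1.5 times and 28 did not. Without the Q140 libraries the counts along CAG length fell to 0 of 9 at 6 months, 10 months and combined. The count of 1 along CAG length at 6 months was 0 with no filter, with a mean of at least 10 CPM, with the L number as a factor and without the 6-month libraries of L number 6, and 2 with DESeq2 and with the study's outlier handling. It was 0 to 2 with each library left out. The replicate block gave 0 there too (mir-18a 0.33, adjusted p = 0.052) and moved no other count by over 1.5 times. Replicate numbers did not pair libraries: same-numbered libraries of different groups had a mean residual correlation of -0.0499 at 6 and -0.00842 at 10 months. Q140 against controls at 6 months gave 1 with total counts, DESeq2 or limma, 4 with the study's handling, 2 without the libraries of low connectivity and 0 to 1 with each library left out. Q20 against WT littermates gave 0 with no filter. The age count was 2 in controls with the L number; 4 in Q140 with total counts or limma, 2 without the libraries of low connectivity and 0 to 1 with each library left out; 2 in Q92 summed with the partner or without low connectivity; and 1 in Q50 with total counts, limma or without low connectivity and 0 to 1 with each left out. Called pairs were 11 with total counts, 2 within 6 months and 10 with partners summed. Over all hairpins the age calls in Q140 were 84 higher and 26 lower with total counts. They were 87 and 23 with limma, beside 39 and 32 as reported. In Q50 they were 65 and 12 with total counts and 64 and 12 with limma, beside 41 and 27. Q140 against controls at 6 months gave 12 and 31 with total counts and 10 and 34 with limma, beside 17 and 20. For most of the other settings the share of all hairpins called is not given, so the counts cannot be set against it. The cause of these moves was not tested.

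Signs changed mostly for mir-19b-1, whose slope was 0.25 at 6 months, 0.010 at 10 and 0.13 combined with limma, 0.12, 0.54 and 0.33 without Q140, and 0.15, 0.20 and 0.17 summed with its partner; with each library left out it was -0.091 to 0.029, -0.10 to 0.060 and -0.066 to 0.017. In Q140 it was 0.15 with limma and 0.24 summed at 6 months, 0.23 summed at 10, and the age value was 0.18 summed. Slopes without Q140 were -0.010 for mir-92a-1 and 0.044 for mir-106b at 6 months, and 0.17 for mir-19a and -0.067 for mir-106b at 10. At 10 months mir-19a was 0.0019 with the L number, and mir-106b was -0.010 with total counts, -0.013 with limma and -0.0054 to 0.028 with each library left out, and mir-93 was then -0.038 to 0.00021. For mir-93 Q140 over controls at 10 months was 0.070 with only WT, 0.012 with the study's handling, 0.010 without low connectivity, and -0.045 to 0.010 with each library left out. The age value of mir-106b was 0.053 with total counts and 0.057 with limma. Over all hairpins combined CAG calls were 52 higher and 50 lower, 38 and 61 with total counts. Summing mir-19b and mir-92a hairpins by name was not run; the partners were found from the counts after seeing the data, as were the choices on connectivity and L number 6. Depth limits mir-19a and mir-18a most.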
